A study of Mus musculus with 17 samples.

Results

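The MHC class I presentation genes were examined in F4/80hi macrophages from lupus-prone mouse kidneys. The genes were listed by name, with earlier results of these data known: H2-K1, H2-D1, H2-M3, B2m, Tap1, Tap2, Tapbp, Erap1 and Nlrc5. Of these 9 genes, 8 were measured by 1 probe set each, among 15780 genes tested, and Nlrc5 is not analysed here. B2m lies on chromosome 2 and Erap1 on chromosome 13, and the other 6 measured genes lie on chromosome 17.

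The F4/80hi cells, which carry a high surface level of a macrophage marker, were sorted from kidneys of NZB/W mice, a hybrid strain that develops lupus nephritis, and each sample was hybridised to 1 Affymetrix array. Remission samples (n = 4) were taken 3 to 4 weeks after complete remission, reached with 1 dose of cyclophosphamide and 6 doses of CTLA4Ig plus anti-CD154. Nephritic samples (n = 7) were taken 2 to 6 weeks after proteinuria began and ahead of terminal renal failure. Prenephritic samples (n = 6) came from mice of 8 to 16 weeks. The labels name drugs for the remission mice alone and give no age for the nephritic or remission mice, so effects of drug, age and disease state cannot be told apart. The labels do not say whether replicates were separate mice or pools, so the p-values measure the spread between these samples, which may be technical.

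MHC class I molecules display short peptides from inside the cell to CD8+ T cells and natural killer cells. A heavy chain, encoded by H2-K1 or H2-D1 for the classical molecules and by H2-M3 for a nonclassical one that binds N-formylated peptides, pairs with beta-2 microglobulin, the product of B2m. The proteasome cuts proteins into peptides, the TAP1-TAP2 transporter moves them into the endoplasmic reticulum, ERAP1 trims them there (the mouse enzyme is also called ERAAP), and tapasin, encoded by Tapbp, holds the empty heavy chain at the transporter. Interferons raise transcription of most of these genes, and macrophages use the same route to present antigens they have taken up.

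The sequences upstream of the genes are shown first, because the class I genes are known for interferon elements close to the transcription start. RefSeq's promoter table of GRCm38.p6 held 7 of the 8 measured genes, and Tap2 is named only. Each window runs from 250 bases before the listed start to 20 bases after it, 270 bases 5′ to 3′ on the gene's own strand. The windows are chr17:34000328-34000597 on the minus strand for H2-K1 (the first of 2 listed starts), and on the plus strand chr17:35262844-35263113 for H2-D1, chr2:122147437-122147706 for B2m, chr17:34187306-34187575 for Tap1 and chr13:74639603-74639872 for Erap1. Capitals mark any match to 1 of 4 motifs on either strand, namely GTTTCACTTCT, the interferon response element core (GAAA, any 2 bases, GAAA), the CCAAT box and the cyclic AMP element core TGACG. GTTTCACTTCT is the longest run of bases, 11, that the windows of H2-K1, H2-D1 and H2-M3 share, and it lies in the interferon element known from mouse class I promoters. H2-K1, Tap1 and Erap1 are printed because they fell in remission, and H2-D1 and B2m as the partners that did not pass the test.
H2-K1: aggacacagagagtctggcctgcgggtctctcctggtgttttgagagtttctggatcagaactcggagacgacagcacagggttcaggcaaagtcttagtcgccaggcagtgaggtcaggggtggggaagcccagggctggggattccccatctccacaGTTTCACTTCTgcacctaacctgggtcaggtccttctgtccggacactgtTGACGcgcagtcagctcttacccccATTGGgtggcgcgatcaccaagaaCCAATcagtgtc
H2-D1: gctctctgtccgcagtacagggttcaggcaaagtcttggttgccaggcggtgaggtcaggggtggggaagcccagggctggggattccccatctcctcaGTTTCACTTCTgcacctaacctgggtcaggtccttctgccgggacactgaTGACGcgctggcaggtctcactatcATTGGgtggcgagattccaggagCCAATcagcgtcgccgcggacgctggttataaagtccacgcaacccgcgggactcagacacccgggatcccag
B2m: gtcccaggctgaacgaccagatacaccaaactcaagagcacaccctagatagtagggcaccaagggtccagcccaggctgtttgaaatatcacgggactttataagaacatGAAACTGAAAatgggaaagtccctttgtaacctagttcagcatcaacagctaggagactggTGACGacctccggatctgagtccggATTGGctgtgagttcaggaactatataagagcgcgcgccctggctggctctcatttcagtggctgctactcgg
Tap1: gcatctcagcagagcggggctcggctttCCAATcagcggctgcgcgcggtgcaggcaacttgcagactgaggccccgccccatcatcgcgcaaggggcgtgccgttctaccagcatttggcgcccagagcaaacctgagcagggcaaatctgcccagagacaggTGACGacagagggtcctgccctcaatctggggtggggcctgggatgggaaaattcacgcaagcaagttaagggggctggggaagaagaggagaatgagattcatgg
Erap1: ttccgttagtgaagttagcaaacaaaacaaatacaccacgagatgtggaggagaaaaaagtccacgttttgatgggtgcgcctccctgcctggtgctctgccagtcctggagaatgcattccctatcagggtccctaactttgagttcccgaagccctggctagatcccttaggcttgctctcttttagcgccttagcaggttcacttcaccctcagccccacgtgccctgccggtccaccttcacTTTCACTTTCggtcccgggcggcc

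GTTTCACTTCT occurs in these 3 of the 7 windows, which is how it was chosen, and in 0.0629% of the 27025 windows of that length in the table, counted on both strands. In H2-K1 it lies 91 to 81 bases before the start, and in H2-D1 151 to 141 bases before it. The best local alignment of these 2 windows spans 198 columns, of which 177 (89.4%) are identical. The interferon response element core was found in B2m and Erap1 (2 of 7, against 3.26% of all windows). In B2m it lies 139 to 130 bases before the start, and in Erap1 it crosses the start. CCAAT was found in 6 of 7 (35.9% of all windows) and TGACG in 5 of 7 (19.6%). The Tap1 window held CCAAT and TGACG and neither of the interferon-related motifs as searched. The motifs do not overlap one another in the printed windows. A match describes letters in a window of the reference assembly, which is not the NZB/W genome, and a window with no match carries no information on a factor. The motifs were chosen after the windows had been read.

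The arrays measured macrophage-rich RNA. Adgre1, which encodes the marker used for the sort, averaged 13.23 (SD 0.14, n = 4) in remission arrays, 13.24 (SD 0.09, n = 7) in nephritic arrays and 13.08 (SD 0.18, n = 6) in prenephritic arrays, in log2 expression units. Kidney tubule transcripts were present on the same arrays, and the mean log2 level of 18 tubule markers was 9.92 to 11.35 in remission, 7.63 to 10.46 in nephritic and 8.91 to 10.73 in prenephritic arrays. The tubule score, the mean of these 18 genes centred over the arrays, was 1.15, 1.46, 0.72 and 0.02 in remission replicates 1 to 4, against −2.27 to 0.57 in nephritic arrays. The group means differed by 1.24, which did not pass after adjustment (exact two-sided permutation test over 330 splits, p = 0.027, adjusted p = 0.081 over 3 comparisons). Nephritic replicate 3 stood lowest on this score. The table gives no scan date or slide, so no array batch could be examined.

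Remission samples were set against nephritic ones to ask how macrophages differ once treated mice have left nephritis. Transcripts of the peptide transporter subunit Tap1, the heavy chain H2-K1 and the trimming enzyme Erap1 were lower in remission, by 41.3%, 19.9% and 23.8%. The other heavy chains, B2m and Tapbp differed by 0.09 or less on the log2 scale and did not pass the test, and Tap2 lay just outside it. In bulk samples such as these, fewer cells of a type and less RNA per cell cannot be told apart. By limma with Benjamini-Hochberg adjustment over all genes, 3 of the 8 genes were called lower and 0 higher at an adjusted p under 0.05, against 10% and 3.27% of all genes (13.3% in either direction). At an unadjusted p under 0.05 the count was 4 of 8, with Tap2, against 29.4% of all genes.

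Tap1 read 9.93, 9.52, 9.89 and 10.30 in the 4 remission arrays. In nephritic arrays its lowest, median and highest values were 10.17, 10.71 and 11.08. Nephritic replicate 2 was the one nephritic array at or below the highest remission array, so the groups overlapped by that array. The log2 difference was −0.77 ± 0.17 (SE; 95% interval −1.13 to −0.41), with an adjusted p of 0.007 by limma.

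H2-K1, a classical heavy chain gene, read 12.80, 12.64, 12.87 and 12.96 in remission arrays, against a lowest of 12.92, a median of 13.18 and a highest of 13.23 in nephritic arrays. Remission replicate 4 again lay above nephritic replicate 2, and the other 3 remission arrays lay below every nephritic array. The difference was −0.32 ± 0.08 (95% interval −0.50 to −0.14; limma adjusted p = 0.018).

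Erap1 read 7.73, 7.80, 7.86 and 7.92 in remission arrays, the tightest group of the 3 (SD 0.08), against 7.91, 8.25 and 8.48 as the lowest, median and highest of the nephritic arrays. The overlap was again between remission replicate 4 and nephritic replicate 2. Its difference was −0.39 ± 0.11 (95% interval −0.63 to −0.16; limma adjusted p = 0.026). Tap2, the other transporter subunit, read 10.21, 9.83, 9.92 and 10.54 in remission and 10.35, 10.55 and 10.69 as the lowest, median and highest in nephritic arrays. Remission replicate 4 lay among the nephritic values, and the other 3 lay below all of them. The Tap2 difference of −0.41 ± 0.13 (95% interval −0.69 to −0.13) had a limma adjusted p of 0.051.

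**Figure D1:**
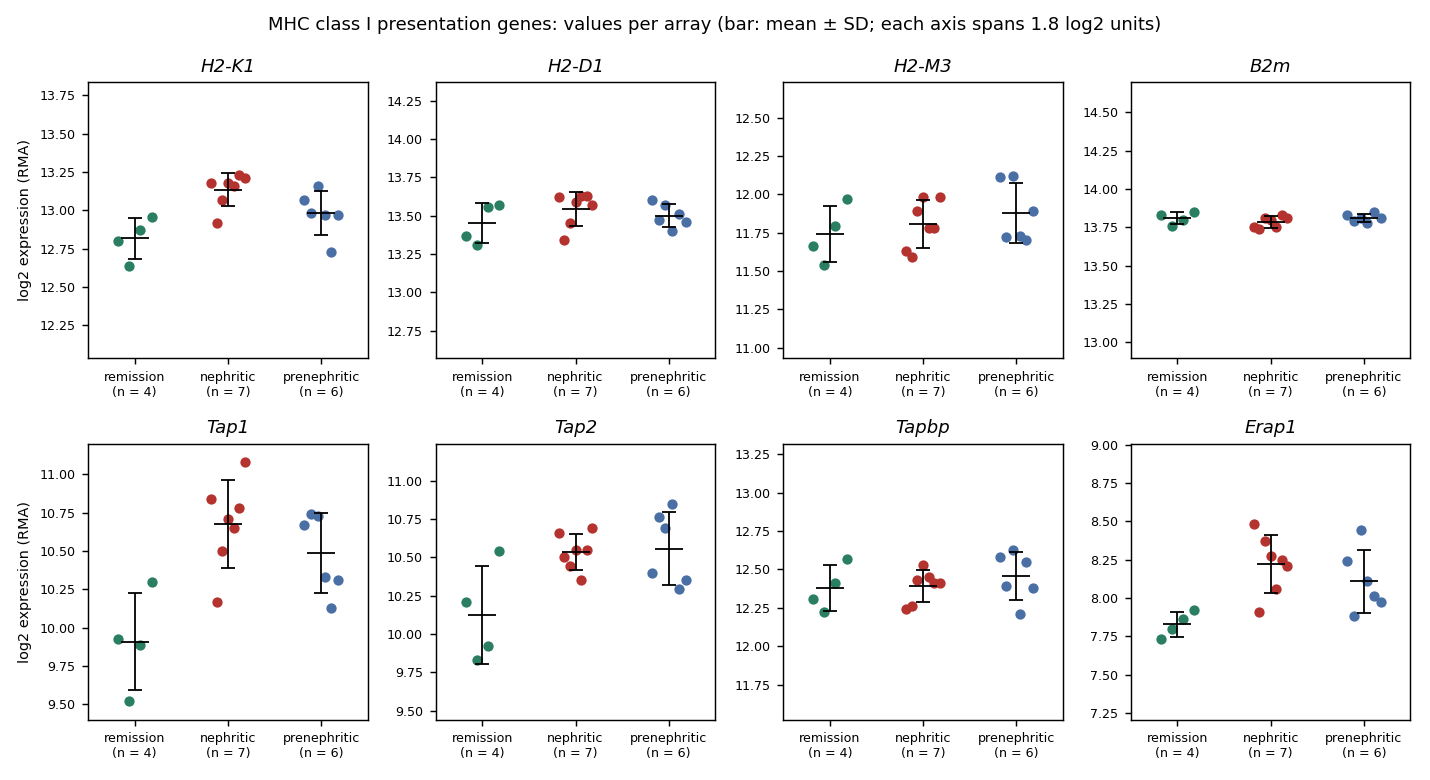
Log2 expression of the 8 measured MHC class I presentation genes on each array (points) by group, with the mean ± SD as bars; every vertical axis spans the same 1.8 log2 units around the gene's own level. For Tap1, H2-K1 and Erap1, 3 of the 4 remission arrays lie below all 7 nephritic arrays, while B2m varies by little in any group.

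The intervals of the remaining 4 genes included 0. B2m averaged 13.81 (SD 0.04) in remission and 13.78 (SD 0.04) in nephritic arrays, a difference of 0.03 with a 95% interval of −0.06 to 0.12. The interval of Tapbp was −0.20 to 0.17, and that of H2-D1 was −0.25 to 0.06. H2-M3 varied more from array to array, and its interval was wider (−0.30 to 0.17). Adjusted p for these 4 genes was between 0.43 and 0.94 by limma. In 0 of the 8 genes did the remission and nephritic arrays separate with no overlap, against 6.95% of all genes with all remission arrays lower. The median difference over the 8 genes was −0.21, and over all genes −0.03.

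Whether the genes moved by different amounts was tested within arrays, after their differences had been seen. For each of the 28 pairs, the difference between the 2 genes on an array was compared between remission and nephritic arrays by an exact two-sided permutation test (330 splits, smallest p 0.003), with adjustment over the 28 pairs. The H2-K1 value minus the H2-D1 value was lower in remission, with a difference of −0.23 (exact permutation p = 0.003, adjusted p = 0.012). Centred over all 17 arrays, H2-K1 minus H2-D1 was −0.06, −0.17, −0.19 and −0.11 in the remission arrays and 0.03 to 0.14 in the nephritic arrays. These values did not overlap, although those of H2-D1 itself did. Prenephritic arrays spanned both, with −0.28 to 0.10.

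Tap1 minus Tap2 differed by −0.36 (exact permutation, adjusted p = 0.045) and Tap1 minus Tapbp by −0.75 (exact permutation, adjusted p = 0.012). Tap1 against Erap1, at −0.38, did not pass after adjustment (exact permutation, adjusted p = 0.063). H2-K1, Tap2 and Erap1 could not be told from each other in this way, with differences of 0.09 for H2-K1 against Tap2, 0.07 for H2-K1 against Erap1 and −0.02 for Tap2 against Erap1 (exact permutation, adjusted p = 0.47, 0.47 and 0.90). In all, 18 of the 28 pairs passed. Most of these set H2-K1, Tap1, Tap2 or Erap1 against H2-D1, H2-M3, B2m or Tapbp, so they largely restate the single-gene differences. Each gene enters several pairs, so the pairs are not separate tests. They were not repeated with the tubule score or with arrays left out.

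Calls of these genes changed with single arrays and with the tubule score. Remission replicate 2, with the highest tubule score, was the lowest remission array for 7 of the 8 genes, and remission replicate 4, with the lowest remission score, was the highest for 8 of 8. In the other groups this order did not hold throughout. Nephritic replicate 5, with the highest nephritic score (0.57), was lowest for 1 of 8 genes, and nephritic replicate 2 (0.11) for 6. Nephritic replicate 3, with the lowest score (−2.27), was highest for 0. Prenephritic replicate 6, with the highest score there (0.83), was lowest for 0, and prenephritic replicate 5 (−0.51) for 4. Prenephritic replicate 3, with the lowest score there (−0.99), was highest for 4. With the tubule score as a covariate 0 of the 8 genes were called, with Tap1 at −0.66 (limma adjusted p = 0.056), H2-K1 at −0.28 (0.10), Tap2 at −0.34 (0.22) and Erap1 at −0.23 (0.25). In that fit 799 of all 15780 genes were called lower and 485 higher. Tap1 stayed past the threshold when any 1 of the 17 arrays was left out (limma adjusted p of at most 0.041). H2-K1 did not pass without remission replicate 1 (−0.31, adjusted p = 0.058) or 2 (−0.26, adjusted p = 0.093), nor Erap1 without remission replicate 1 (−0.36, adjusted p = 0.094), 2 (−0.38, adjusted p = 0.083) or 3 (−0.40, adjusted p = 0.055). Tap2 passed without remission replicate 4 (−0.55, adjusted p = 0.0083), nephritic replicate 5 (−0.44, adjusted p = 0.044) or any 1 of prenephritic replicates 4, 5 and 6 (−0.41, with adjusted p of 0.044, 0.046 and 0.0497). Without remission replicates 1 and 2 together, an alternative chosen after the data were seen, 0 of 8 genes were called, and Tap1 was at −0.58 (adjusted p = 0.21). There 213 of all 15780 genes were called lower and 19 higher.

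**Figure D2:**
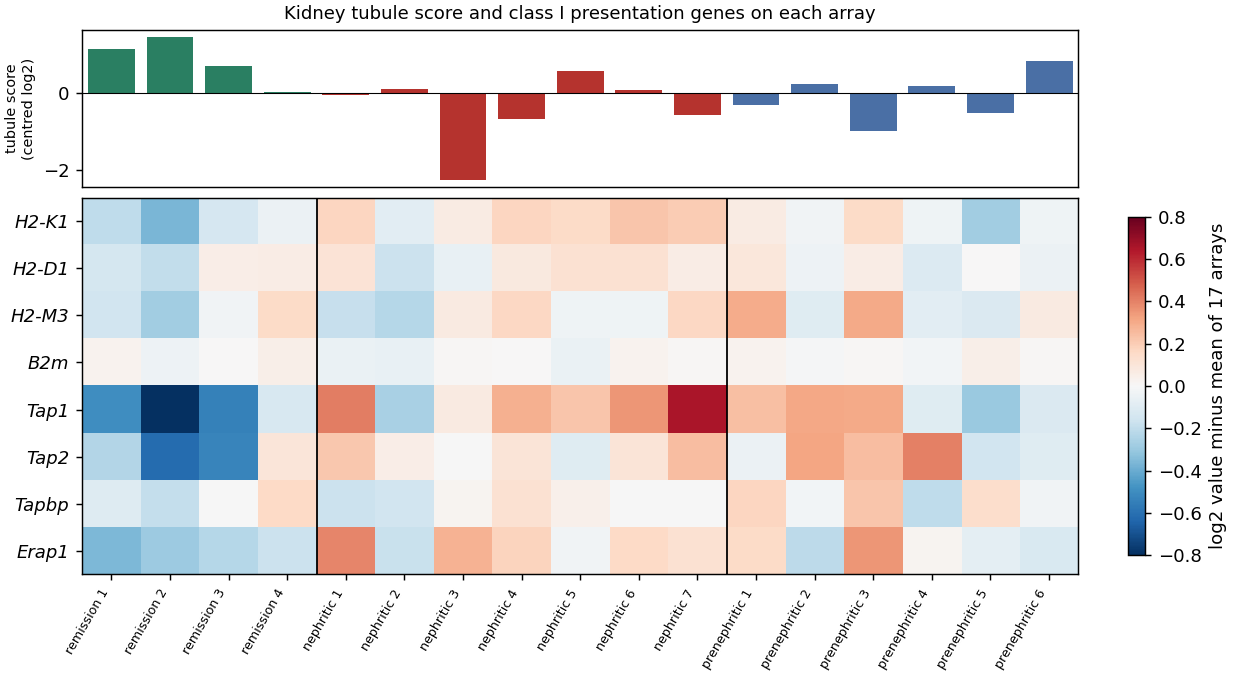
Tubule score (bars, centred log2 units) above the log2 value of each MHC class I presentation gene minus its mean over 17 arrays (colour) on every array, remission left, nephritic middle and prenephritic right. Tap1 and Tap2 are lowest on remission replicate 2, which has the highest score (1.46), and nephritic replicate 2 is the bluest nephritic column for Tap1, H2-K1 and Erap1.

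Remission and prenephritic samples were compared to ask whether values after treatment differ from those of young mice without nephritis. Tap1 read 9.52 to 10.30 in remission arrays and 10.13, 10.50 and 10.74 as the lowest, median and highest in prenephritic arrays, a difference of −0.58 ± 0.17. Tap2 differed by −0.44 ± 0.14, Erap1 by −0.28 ± 0.11 and H2-K1 by −0.16 ± 0.09. By limma 0 of the 8 genes were called (adjusted p = 0.17, 0.18, 0.23 and 0.30 for these 4), against 0.00634% of all genes, which is 1 gene. At an unadjusted p under 0.05, Tap1, Tap2 and Erap1 lay past the threshold, 3 of 8, against 18.7% of all genes. For Tap1, 3 of the 4 remission arrays lay below every prenephritic array, and 1 prenephritic array, replicate 5, lay at or below the highest remission array. B2m stood at 0.00 ± 0.05 and H2-D1, H2-M3 and Tapbp between −0.14 and −0.05. The mean tubule score differed by 0.93 between these groups (exact permutation p = 0.057, adjusted p = 0.086).

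Nephritic against prenephritic samples addressed the state of the genes in established disease. H2-K1 averaged 13.14 (SD 0.11) in nephritic arrays and 12.98 (SD 0.14) in prenephritic arrays, a difference of 0.16 with a 95% interval of 0.00 to 0.31. Tap1 stood at 0.19 (95% interval −0.13 to 0.51) and Erap1 at 0.11 (−0.09 to 0.32). The other 5 genes lay between −0.08 and 0.04. By limma 0 of the 8 genes were called, against 12.1% of all genes (6.74% higher and 5.32% lower), and 0 of 8 had an unadjusted p under 0.05, against 25.3% (adjusted p = 0.20, 0.48 and 0.54 for the 3 named). The remission arrays enter both of the other comparisons, so their differences from nephritic and from prenephritic arrays are not separate evidence.

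**Figure D3:**
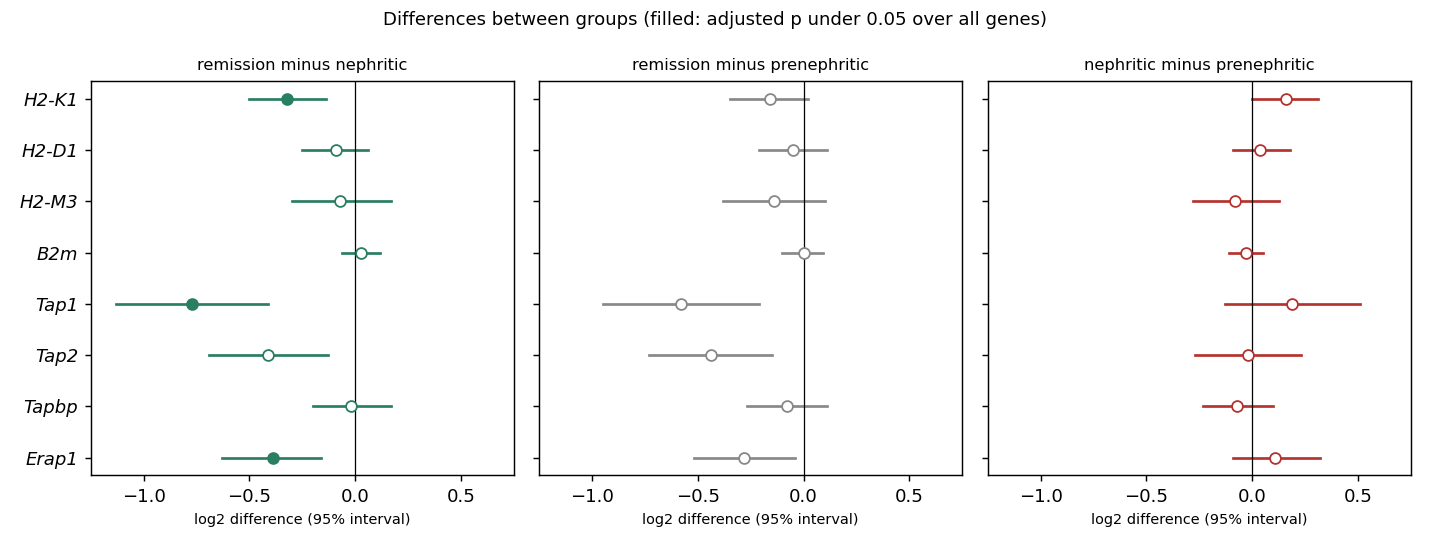
Log2 difference (point) and 95% interval (line) of each MHC class I presentation gene in remission minus nephritic, remission minus prenephritic and nephritic minus prenephritic arrays; filled points had an adjusted p under 0.05 over all genes. Filled points appear in the left panel alone, for Tap1, H2-K1 and Erap1, and B2m has the shortest intervals in all 3 panels.

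Upstream of the transporter, the immunoproteasome cuts proteins into peptides suited to class I molecules. Its interferon-inducible catalytic subunits are encoded by Psmb8, Psmb9 and Psmb10. Psme1 and Psme2 encode a proteasome activator, and Pomp encodes a proteasome assembly factor. With Psme3 these form the list of immunoproteasome and proteasome activator genes. In remission against nephritic arrays, 5 of the 7 genes of this list fell and 0 rose (limma, background as above), with a median difference of −0.35 against −0.03 over all genes. Psme2 fell by 0.46 ± 0.11 (adjusted p = 0.014), Psmb9 by 0.46 ± 0.14 (0.033), Psme3, which encodes a nuclear activator, by 0.31 ± 0.07 (0.011) and Pomp by 0.22 ± 0.06 (0.033). The fifth, Psmb8, fell by 0.40 ± 0.12 (adjusted p = 0.034), and it is named after its values were seen. Psmb9 lies next to Tap1 and read 11.34, 11.04, 11.47 and 11.67 in remission arrays, against 11.61, 11.84 and 12.24 as the lowest, median and highest in nephritic arrays. Remission replicate 4 alone lay among the nephritic values. The constitutive subunit genes Psmb6 and Psmb7 differed by −0.11 ± 0.08 and −0.07 ± 0.07, and 0 of these 2 were called (adjusted p = 0.42 and 0.61, unadjusted 0.21 and 0.38).

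The count of called genes in this list of immunoproteasome and activator genes moved with single arrays. It was 1 without remission replicate 1 or 2 and 2 without remission replicate 3, nephritic replicate 1 or nephritic replicate 7, and 3 without nephritic replicate 4, and its range over the 17 arrays left out was 1 to 7. With the tubule score as a covariate, or without remission replicates 1 and 2, it was 0. The count over all 15780 genes moved too. With all arrays 1584 were called lower, against 926, 839 and 1162 without remission replicates 1, 2 and 3. Without nephritic replicates 1, 4 and 7 it was 1331, 1309 and 1305. With the tubule covariate it was 799, and without remission replicates 1 and 2 together 213. In nephritic against prenephritic arrays, 2 of the 7 were called higher, against 6.74% of all genes. They were Psme3 at 0.23 ± 0.07 (limma adjusted p = 0.032) and Pomp at 0.19 ± 0.06 (0.043). Psmb6 of the constitutive subunits was also called, at 0.26 ± 0.07 (0.027). The catalytic subunit genes Psmb8, Psmb9 and Psmb10 were not (limma adjusted p = 0.35, 0.49 and 0.22). In remission against prenephritic arrays, 0 were called.

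Within the endoplasmic reticulum, chaperones fold the heavy chain and other enzymes inspect the complex. Of 11 measured genes of loading and trimming, 1 fell in remission against nephritic arrays, a share near the 10% of all genes called lower. This was Uggt1 (−0.41 ± 0.10, limma adjusted p = 0.014), which encodes the glucosyltransferase that recognises misfolded glycoproteins. The median difference of this list was −0.10. Of the 6 measured genes of other H2-region heavy chains, out of 22 listed, 0 were called, against 10% of all genes called lower. The smallest limma adjusted p was 0.17, for H2-T24 at −0.46 ± 0.21 (unadjusted p = 0.048). Of these 6 genes, 3 averaged below 4.99, the lower quartile of all values, in remission and in nephritic arrays alike.

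Class I-like molecules outside the H2 region share the fold but serve other ligands. In remission against nephritic arrays 2 of 6 fell, against 10% of all genes. Hfe, a regulator of iron uptake, averaged 11.50 (SD 0.16) in remission arrays and 12.01 (SD 0.12) in nephritic arrays (−0.51 ± 0.10, limma adjusted p = 0.0026). Mr1, which presents vitamin B metabolites to MAIT cells, averaged 6.40 (SD 0.21) in remission arrays and 6.91 (SD 0.06) in nephritic arrays (−0.51 ± 0.12, limma adjusted p = 0.012). Neither gene's remission arrays overlapped the nephritic ones, as held for 6.95% of all genes with all remission arrays lower. Hfe was also higher in nephritic than in prenephritic arrays (0.45 ± 0.09, adjusted p = 0.0026). The lipid-presenting molecule Cd1d1 had its difference elsewhere. It averaged 8.08 (SD 0.18) in remission, 8.01 (SD 0.18) in nephritic and 9.01 (SD 0.34) in prenephritic arrays, and it fell in nephritic against prenephritic arrays (95% interval −1.28 to −0.72, limma adjusted p = 0.00014). Its remission minus prenephritic difference of −0.92 ± 0.15 had an adjusted p of 0.061, the smallest of this list there.

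Of 11 measured transcriptional regulators of class I genes, 1 fell in remission against nephritic arrays, again near the 10% of all genes. It was Relb, an NF-κB subunit gene, with 8.71, 8.24, 8.30 and 8.98 in remission arrays and 8.96, 9.51 and 9.96 as the lowest, median and highest in nephritic arrays. A single nephritic array, replicate 5, lay below remission replicate 4. The difference was −0.94 ± 0.18 (limma adjusted p = 0.0031), and Relb was also higher in nephritic than in prenephritic arrays (0.68 ± 0.16, adjusted p = 0.011). Irf1, which encodes a transcription factor that binds interferon elements of class I promoters, stood at −0.32 ± 0.14 in remission minus nephritic arrays (limma adjusted p = 0.13) and is named after its values were seen.

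Interferon-responsive genes are shown because the class I genes respond to the same signals. In remission against nephritic arrays 10% of all genes fell and 3.27% rose. Of 12 interferon gamma receptor, signalling and response genes, 3 fell and 0 rose there, with a median of −0.41. They were the immunity-related GTPase gene Irgm1 (−0.58 ± 0.13, limma adjusted p = 0.0092), the kinase gene Jak2 (−0.41 ± 0.12, 0.029) and the guanylate-binding protein gene Gbp2 (−0.74 ± 0.21, 0.030). Of 12 type I interferon-stimulated genes, 6 fell and 0 rose, with a median of −0.61. The nucleic acid sensor gene Zbp1 fell by 1.08 ± 0.17 (limma adjusted p = 0.00083), Irf7, which encodes an interferon regulatory factor, by 1.41 ± 0.27 (0.0029), Oasl2 by 0.80 ± 0.19 (0.012) and Ifit1 by 0.89 ± 0.23 (0.019). With the tubule score as a covariate, 0 interferon gamma and 3 type I genes were called, and without remission replicates 1 and 2 the counts were 0 interferon gamma and 1 type I gene. Leaving out 1 array gave 0 to 5 interferon gamma genes, with 0 without remission replicate 2, 1 without remission replicate 1 or nephritic replicate 7 and 5 without nephritic replicate 2. It gave 2 to 7 type I genes, with 2 without remission replicate 2. Over all 15780 genes, 1584 were called lower with all arrays, 799 with the covariate and 213 without remission replicates 1 and 2. Without remission replicate 1 or 2 alone the count was 926 or 839. Without nephritic replicate 7 it was 1305, and without nephritic replicate 2 it was 1658.

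In nephritic against prenephritic arrays, 0 of the 12 interferon gamma genes were called, with a smallest adjusted p of 0.073 (limma). Of the 12 type I genes, 3 rose there, against 6.74% of all genes. They were Ifit1 (1.14 ± 0.21, limma adjusted p = 0.0017), Irf7 (1.06 ± 0.24, 0.0077) and Zbp1 (0.65 ± 0.15, 0.010). In remission against prenephritic arrays 0 genes of any of the 10 lists were called, where the background was 1 gene in all.

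Cross-presentation is the loading of class I with material taken up from outside. Of 8 genes, 2 fell in remission against nephritic arrays, against 10% of all genes. They were Rac2 (−0.61 ± 0.14, limma adjusted p = 0.0088), a GTPase gene of the phagocyte oxidase, and Sec61b (−0.21 ± 0.07, 0.047), a translocon subunit gene. Both were higher in nephritic than in prenephritic arrays, by 0.52 ± 0.12 and 0.23 ± 0.06 (limma adjusted p = 0.012 and 0.017). Of 10 MHC class II presentation genes, 1 fell in remission against nephritic arrays, the same share as the 10% of all genes, and the median was 0.06. The gene was H2-DMb2 (−0.85 ± 0.20, limma adjusted p = 0.0089). In nephritic against prenephritic arrays 2 of the 10 fell, against 5.32% of all genes. They were H2-Oa (−1.35 ± 0.33, limma adjusted p = 0.013) and H2-Ob (−0.94 ± 0.19, 0.0036).

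**Figure D4:**
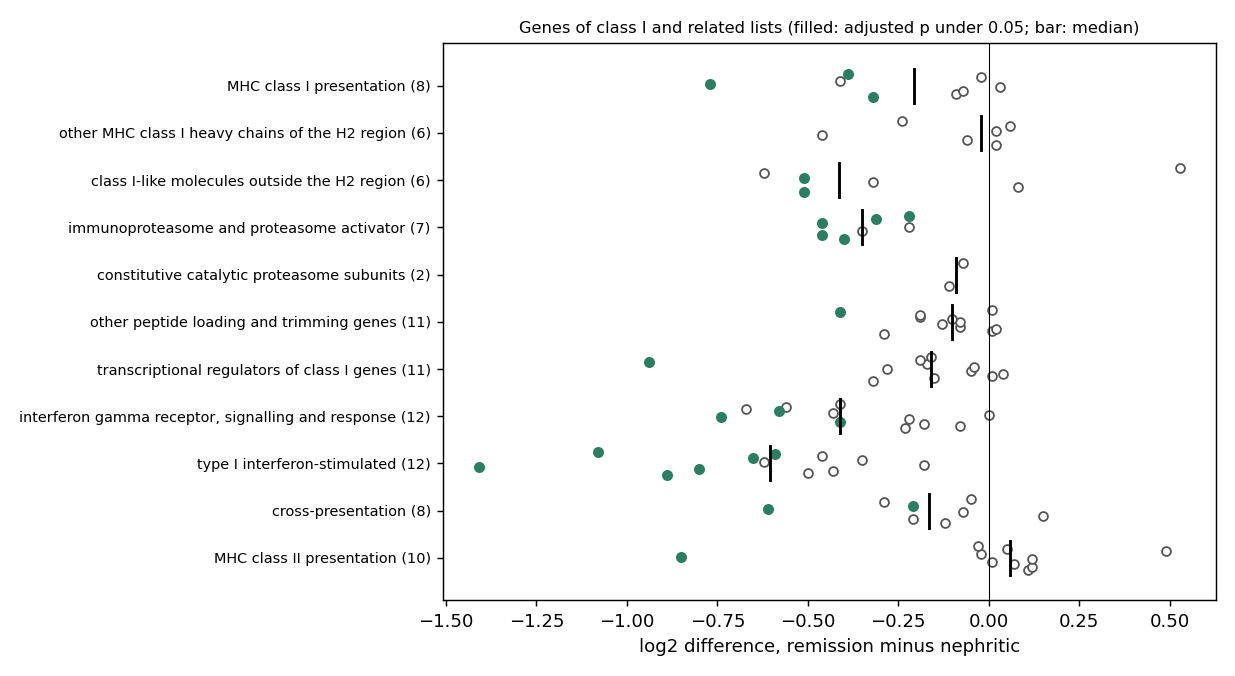
Log2 difference, remission minus nephritic, of every measured gene of the MHC class I presentation set and of 10 related lists (points; measured number in brackets; filled where the adjusted p was under 0.05; vertical bar at the list's median). All filled points lie left of 0, and the type I interferon-stimulated list has the lowest median (−0.61).

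Markers of other cells moved in the same comparison as the class I genes, and also in nephritic against prenephritic arrays. In remission against nephritic arrays, 4 of 18 tubule markers and 1 of 10 endothelial markers were higher, while 4 of 8 T cell, 3 of 8 B and plasma cell, 2 of 7 natural killer cell, 2 of 6 conventional dendritic cell, 1 of 6 neutrophil and 3 of 4 monocyte markers were lower (limma, against 3.27% higher and 10% lower over all genes). A further B and plasma cell marker, Tnfrsf17, which encodes a plasma cell survival receptor, was higher in remission (1.04 ± 0.29, limma adjusted p = 0.025). The neutrophil marker that fell was Csf3r (−0.85 ± 0.17, limma adjusted p = 0.0035). The median of the neutrophil list was 0.02, and 2 of its 6 markers had a negative difference. Differences were negative for 4 of 6 dendritic cell (median −0.21), 5 of 7 natural killer cell and 6 of 8 T cell markers. They were negative for 7 of 8 B and plasma cell and 4 of 4 monocyte markers. The mean log2 level of the T cell markers was 5.12 to 5.37 in remission and 5.46 to 6.07 in nephritic arrays, and that of the monocyte markers was 8.44 to 9.13 in remission arrays and at least 9.24 in each nephritic array. The T cell receptor complex gene Cd3g averaged 4.10 in remission, below 4.99, the lower quartile of all values, and 5.70 in nephritic arrays. Cd8a averaged below this quartile in both groups (4.12 and 4.66). In remission arrays 4 of 8 T cell, 3 of 8 B and plasma cell, 4 of 7 natural killer cell and 1 of 6 dendritic cell markers averaged below it. So did 3 of 6 neutrophil, 1 of 10 endothelial and 1 of 4 monocyte markers, in nephritic arrays as well. Nephritic counts for the first 4 lists were 2, 1, 3 and 1. The monocyte marker Ccr2 averaged 10.89 in remission and 11.31 in nephritic arrays (−0.41 ± 0.11, limma adjusted p = 0.026). Of 11 macrophage markers, 2 fell, Mertk (−1.26 ± 0.24, limma adjusted p = 0.0027) and the high-affinity Fc receptor gene Fcgr1 (−0.55 ± 0.16, 0.031). The median of the macrophage list was 0.03, and 4 of its 11 markers had a negative difference. In nephritic against prenephritic arrays 0 of the 8 class I genes were called. There 5 of 8 B and plasma cell, 3 of 8 T cell, 3 of 4 monocyte, 1 of 6 neutrophil, 1 of 6 dendritic cell and 2 of 11 macrophage markers were higher (limma, against 6.74%). Lower were 1 of 8 B and plasma cell, 1 of 7 natural killer cell, 2 of 6 dendritic cell and 1 of 11 macrophage markers (against 5.32%). Several lists were mixed in direction there. The difference was negative for 4 of 6 neutrophil (median −0.06), 7 of 11 macrophage (−0.01) and 3 of 6 dendritic cell markers (−0.25). It was negative for 3 of 7 natural killer cell (median 0.09), 2 of 8 T cell, 1 of 8 B and plasma cell and 0 of 4 monocyte markers. No tubule or endothelial marker was called. Class I genes are expressed in all of these cells, and the share of each cell type in the class I differences was not tested.

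Across the 17 arrays, the genes formed looser and tighter pairs. H2-K1 followed Tap1 (Pearson's r = 0.92, and 0.87 with group means removed), H2-M3 followed Tapbp (0.81, and 0.80), and Tap2 followed Tap1 (0.78, and 0.63). Erap1 and H2-D1 were each most like H2-K1, with r = 0.78 and 0.73. B2m was most like Tapbp (0.63) and was the least like gene for H2-K1, H2-D1, Tap1, Tap2 and Erap1. Over genes outside the set, ranked by Pearson's r, the mean of the 8 standardised genes was followed most closely by Il10ra, which encodes the interleukin-10 receptor's ligand-binding chain (r = 0.92), then Plod3 (0.90), Bcl10 (0.90), Vps51 (0.89), Rnf220 (0.89) and Batf2 (0.89), the highest of 15772 genes. By Spearman's rank correlation the order among these 6 differed, with Bcl10 highest (0.94) and Il10ra lowest (0.81). These correlations describe 17 arrays that share a normalization, a sort and varying tubule RNA. None of the 6 genes was called in any of the 3 comparisons by limma, although Plod3 and Vps51 had an unadjusted p of 0.024 and 0.0076 in remission minus nephritic arrays (−0.39 ± 0.16 and −0.27 ± 0.09).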

How the data were processed

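The log2 expression values were deposited by the authors and come from RMA (background correction, quantile normalization, and 1 summary per probe set), per the submitters' processing notes; no version is stated. RMA scales the arrays to each other, although their medians still ran from 7.49 to 7.68, so the values carry no measure of a cell's total RNA. Of 16539 probe sets, 64 were controls and 695 had no symbol in the platform annotation, and values ran from 1.76 to 15.00. The probe definition and build are not stated. Class I heavy chains are polymorphic and alike in sequence, so probe signals can include related genes and depend on the strain. Groups and replicate numbers come from the sample titles.

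One limma model (limma 3.58.1, R 4.3.3) with group means was fitted to 17 arrays (14 residual degrees of freedom). Tests were two-sided, with Benjamini-Hochberg adjustment over 15780 genes and a threshold of 0.05. The number of arrays limits precision. The procedure was tested on simulated data. Genes named were the members, at most 4 called genes of each list by p (2 where none was called), 4 macrophage markers and the 6 genes most like the members; others are said to be named after their values were seen. The members and lists were chosen with earlier results of these data known. The 10 pathway lists held 116 genes, 85 of them measured. The alternatives are given in the closing section.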

Additional observations from a re-analysis of the deposited data

Results flagged for a closer look

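In each group the highest and the lowest array of each gene were checked for a gap from the other arrays (Dixon's criterion). Of 24 checks of the 8 MHC class I presentation genes, 0 stood out, and of 147 checks of related genes 6 did, where chance gives about 1 in 20. On nephritic replicate 7, Psme2 read 12.59 against 12.37 on the next array, and Psmb9 read 12.24 against 11.86. On nephritic replicate 2, Stat2 read 8.33 against 8.77 and Il10ra read 11.23 against 11.48, both below the other nephritic arrays. H2-Ob read 8.15 on nephritic replicate 5 against 8.98 on the next lowest array, and 9.06 on prenephritic replicate 6 against 9.84.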

How the results depend on the processing

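Of the 8 genes, 0 were called in nephritic minus prenephritic or remission minus prenephritic arrays under any of the 12 alternatives or the 17 fits that left out 1 array. In remission minus nephritic arrays, 3 genes were called, 0 with the tubule score as a covariate, 0 with a tested change of at least 1.5-fold, 0 without remission replicates 1 and 2 (chosen after seeing the data), and 1 to 4 when 1 array was left out. Erap1 was not called after repeated quantile normalization (adjusted p = 0.055) or with array medians subtracted (0.065). Tap2 was called without dim genes (0.043), with a trended robust prior (0.047) and with array weights (0.012). The replicate number as a block gave 4 called genes, Tap2 included (−0.46, adjusted p = 0.035). Of 696 single-gene values under these alternatives, 15 had the opposite sign to the reported difference, and 0 of the 15 were called (limma adjusted p of at least 0.55). In remission minus nephritic arrays, Tapbp (reported −0.02) stood at 0.03 after repeated quantile normalization, 0.11 with the tubule covariate, 0.10 without remission replicates 1 and 2, and −0.08 to 0.04 leaving out 1 array. H2-M3 (−0.07) stood at 0.09 with the tubule covariate and 0.07 without remission replicates 1 and 2, where H2-D1 (−0.09) stood at 0.02. In remission minus prenephritic arrays, Tapbp (−0.08) stood at 0.01 with the tubule covariate and 0.03 without remission replicates 1 and 2, where H2-D1 (−0.05) stood at 0.06. In nephritic minus prenephritic arrays, Tap2 (−0.02) ran from −0.08 to 0.03 leaving out 1 array. Correlations of same-numbered arrays ran from −0.26 to 0.80, the highest for replicate 3 of nephritic and prenephritic arrays. These values cannot decide whether the numbers pair the samples.

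Over all genes, nephritic minus prenephritic gave 1904 called genes, 3052 with the tubule covariate, 1236 without nephritic replicate 6 and prenephritic replicate 5, 105 at 1.5-fold, and 1466 to 2032 leaving out 1 array. Remission minus nephritic gave 2100, 3624 with array weights, 1284 with the tubule covariate, 38 at 1.5-fold, 232 without remission replicates 1 and 2, and 1021 to 2921 leaving out 1 array. Remission minus prenephritic gave 1, 5 with repeated quantile normalization, 3 with medians subtracted, 3 with the trended prior, 358 with array weights, 478 with the replicate block, 0 to 199 leaving out 1 array, and 0 with only the groups compared, the tubule covariate, a 1.5-fold test, remission replicates 1 and 2 out, or nephritic replicate 6 and prenephritic replicate 5 out. The cause of these shifts was not tested, apart from the fewer arrays or stricter threshold that some alternatives impose.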
